A study of Mus musculus with 32 samples.

Results

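Red blood cells carry oxygen on hemoglobin, which needs heme, and the 9 genes described here belong to the making of heme, to the iron supply for it, to the red cell surface and cytoplasm, and to the control of red cell genes. They are Alas2, Slc4a1, Slc25a37, Hemgn, Klf1, Car2, Blvrb, Tfrc and Sox6, taken by name as 9 of the 23154 genes listed in every expression file, and all 9 were found. The data are single-cell RNA sequencing of 1916 cells picked from 8 organs (liver, lung, intestine, heart, somite, skin and the fore- and hindbrain) of C57BL/6J mouse embryos. The embryos were 3 at embryonic day (E) 9.5, 2 at E10.5 and 2 at E11.5, and the embryo was used as the replicate. By the labels, embryo 2 of E9.5 was female and the others male, embryos 1 and 2 of E9.5 were sequenced on a HiSeq 2500 and the rest on a HiSeq 4000, and the organs of E9.5 embryo 3 were pooled into 2 samples, in which each cell's name gives its organ. The study sorted 1815 cells into hematopoietic cells (HC, 249 cells), neuronal cells (NC, 384), epithelial cells (EC, 307) and mesoderm-derived cells (MC, 875). The HC group was drawn from the activity of transcription factors in these same cells, with Klf1 itself among those factors, so a comparison of HC with the other groups describes that grouping and is not independent of it. In 14 pairs of cells, each within 1 sample, the columns held the same value in every gene, so each pair may be 1 cell with a repeated column. All 14 repeats were grouped cells, 3 of them HC (2 Kit- and Myb-expressing liver cells and 1 Hba-x-high forebrain cell, by the sets described further on). Counts below are of the columns as deposited, and the main counts are also given with each pair counted once. Counted once, the pairs left 246 HC cells (178 of the liver and 68 of other organs), no call of the 9 genes changed in HC against the other 3 groups together, in liver against other organs or in either slope, and no embryo mean of a gene in HC moved by more than 0.29.

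The first cells of the erythroid line arise in the yolk sac and circulate as large, nucleated primitive red cells filled with embryonic globins such as Hba-x, Hbb-bh1 and Hbb-y. A later, definitive wave starts from erythro-myeloid progenitors that settle in the fetal liver and pass through dividing precursor stages there. Along the way a cell takes up iron through the transferrin receptor (Tfrc), brings it into mitochondria through mitoferrin 1 (Slc25a37), and starts heme synthesis with the erythroid form of aminolevulinate synthase (Alas2). Band 3 (Slc4a1) is the anion exchanger and main anchor of the red cell membrane, carbonic anhydrase 2 (Car2) interconverts carbon dioxide and bicarbonate, and biliverdin reductase B (Blvrb) is a flavin reductase abundant in red cells. Klf1 is the erythroid Krüppel-like factor, Hemgn (hemogen) is a nuclear protein of blood cells, and Sox6 is a transcription factor that is known to repress embryonic globin genes in definitive red cells and that also acts in neural tissue, cartilage and muscle.

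The sequence before a transcript start of 4 of these genes is given because the transcripts were high together in HC cells and because erythroid factors are known to bind short motifs in such regions. Each line holds the 250 bases upstream of a RefSeq transcript start (mouse build GRCm38.p6), 5′ to 3′ on the gene's strand, with 3 short motifs or their reverse complements in capitals. These were AGATAA or TGATAA, which factors like Gata1 are known to bind, and CACCC, a motif of Krüppel-like factors.
Alas2, chrX:150547167-150547416, plus strand: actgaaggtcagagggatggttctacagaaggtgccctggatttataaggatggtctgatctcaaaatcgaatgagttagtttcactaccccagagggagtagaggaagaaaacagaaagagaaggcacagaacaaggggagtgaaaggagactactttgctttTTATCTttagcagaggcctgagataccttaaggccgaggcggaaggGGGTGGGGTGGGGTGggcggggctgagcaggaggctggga
Klf1, chr8:84901732-84901981, plus strand: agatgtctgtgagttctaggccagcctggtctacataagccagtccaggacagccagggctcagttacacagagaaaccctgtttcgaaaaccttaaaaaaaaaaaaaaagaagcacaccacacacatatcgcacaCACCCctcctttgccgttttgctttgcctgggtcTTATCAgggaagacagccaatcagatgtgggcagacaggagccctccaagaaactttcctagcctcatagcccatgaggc
Hemgn, chr4:46404184-46404433, minus strand: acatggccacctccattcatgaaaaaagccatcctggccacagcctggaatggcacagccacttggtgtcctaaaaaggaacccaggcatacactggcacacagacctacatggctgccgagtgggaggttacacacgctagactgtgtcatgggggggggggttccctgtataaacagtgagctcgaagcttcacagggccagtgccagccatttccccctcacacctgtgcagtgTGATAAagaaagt
Blvrb, chr7:27447728-27447977, plus strand: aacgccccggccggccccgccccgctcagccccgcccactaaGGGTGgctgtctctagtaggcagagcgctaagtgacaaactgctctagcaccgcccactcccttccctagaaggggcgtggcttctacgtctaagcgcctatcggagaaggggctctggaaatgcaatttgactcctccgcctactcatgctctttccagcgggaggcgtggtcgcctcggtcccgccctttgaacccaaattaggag
Counting back from the start, Alas2 held AGATAA on the reverse strand at position -86 and 3 copies of CACCC end to end on the same strand, at -40, -35 and -30. Klf1 held TGATAA on the reverse strand at -80 with CACCC on the forward strand at -114, Hemgn held TGATAA on the forward strand at -13, and Blvrb held only CACCC, on the reverse strand at -208. Of 32851 windows of this length in the table, 16.6% held AGATAA or TGATAA and 52.0% held CACCC, so these matches describe the letters and no more. Entries were found for 6 of the 9 genes. The gene spans given next come from another annotation. By those spans the Hemgn window lies inside the gene, and the windows of Alas2 and Klf1 reach into theirs.

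In the annotation of the same build (GENCODE M21), the genes lie on 8 chromosomes: Alas2 at chrX:150547375-150570638, Slc4a1 at chr11:102348824-102366203, Slc25a37 at chr14:69241848-69285112, Hemgn at chr4:46393989-46413506, Klf1 at chr8:84901928-84905291, Car2 at chr3:14886273-14900770, Blvrb at chr7:27447978-27466144, Tfrc at chr16:32608920-32632794 and Sox6 at chr7:115470872-116038796. The libraries count the ends of polyadenylated RNA with unique molecular identifiers (UMIs), and values are UMIs per 1000000 UMIs of the cell (called TPM by the study, with no division by gene length). Levels below are means over cells of log2(TPM/10 + 1), where a value of at least 1 counts as expressed. HC cells held a median of 438183 UMIs, against 252307 in NC, 301723 in EC and 309699 in MC cells.

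Of the 9 genes, 8 were higher in HC than in the mean of the other 3 groups, and Sox6 was not. Car2 differed most, by 5.90 on the log2 scale (SE 0.29), followed by Blvrb at 5.13 (SE 0.27), Klf1 at 4.44 (SE 0.23), Hemgn at 3.64 (SE 0.37), Alas2 at 3.05 (SE 0.51), Slc25a37 at 2.61 (SE 0.31), Slc4a1 at 2.53 (SE 0.44) and Tfrc at 1.95 (SE 0.27). Sox6 was lower by a log2 difference of -0.61 (SE 0.15), short of the fold threshold. The test was limma on embryo means of the 4 groups (27 means, 17432 genes), with a call at a Benjamini-Hochberg adjusted p under 0.05 and a log2 difference of at least 1. Over all genes tested 6.88% were called, 2.69% higher and 4.19% lower in HC. Adjusted p from limma for the 8 genes ran from 1.01e-14 for Car2 to 2.81e-05 for Slc4a1, and that for Sox6 was 0.0016.

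**Figure D1:**
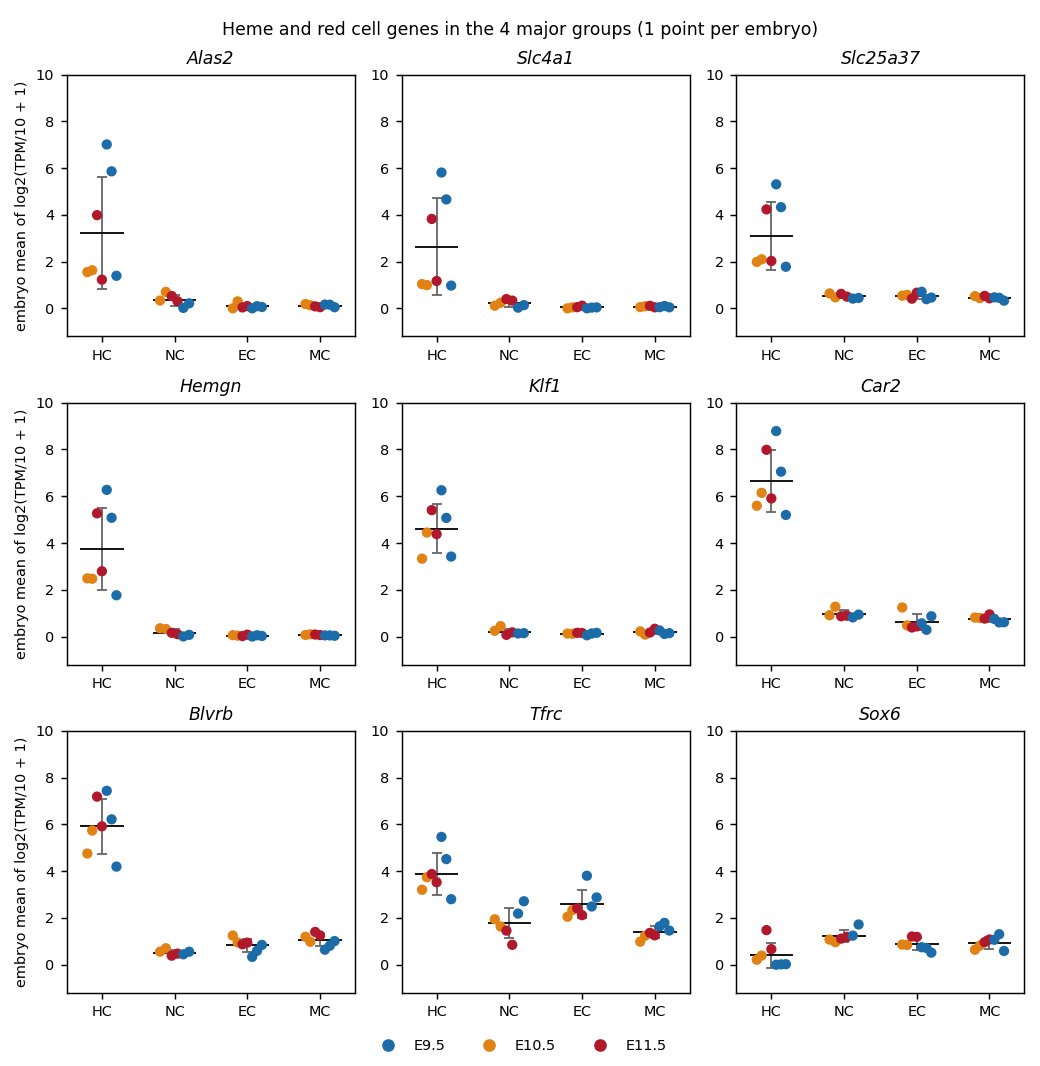
Level of each gene in the 4 major groups; each point is the mean of 1 embryo on the log2(TPM/10 + 1) scale, the line is the mean over embryos and the bar is 1 SD. HC points of Alas2 spread from 1.23 to 7.01 and those of Klf1 from 3.33 to 6.26, above every point of the other groups, while Sox6 points overlap between groups.

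For the genes of iron and heme, Alas2 ranged in HC from 1.23 through a median of 1.63 to 7.01 over 7 embryos, that is from 41.2 to 1354 TPM. In NC its highest embryo reached 0.70, in EC 0.30 and in MC 0.18. Every HC embryo therefore stood above every embryo of the other groups, although the HC embryos lay far apart. For each of the 8 genes higher in HC, the highest HC embryo was E9.5 embryo 1. Its mean rested on 3 heart cells, all of the Hba-x-high set described further on. Slc25a37 ranged in HC from 1.78 through 2.10 to 5.30. Its other groups lay between 0.33 in the lowest MC embryo and 0.71 in the highest EC embryo, a low level in each group rather than none. Tfrc, through which many kinds of dividing cells take up iron, was the least separated of the 8. It ranged in HC from 2.80 through 3.75 to 5.47, in EC from 2.05 through 2.41 to 3.81, in NC from 0.85 through 1.79 to 2.71, and in MC from 0.99 through 1.36 to 1.79. HC and EC embryos overlapped for Tfrc, and HC stood 1.29 (SE 0.32, limma adjusted p = 0.00199) above EC alone, where 7.93% of all genes were called.

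For the membrane and cytoplasm, Slc4a1 ranged in HC from 0.97 through 1.17 to 5.81, and no embryo of another group passed 0.40. Car2 ranged from 5.20 through 6.15 to 8.79 in HC, with the highest other embryo, in NC, at 1.28. Blvrb ranged from 4.20 through 5.92 to 7.44, with the highest other embryo, in MC, at 1.40. Car2 was the most abundant of the 9 in HC by UMI share, at 1003 to 4491 TPM. Among the regulators, Klf1 ranged in HC from 3.33 through 4.45 to 6.26 and Hemgn from 1.77 through 2.79 to 6.27, while the highest embryo outside HC was 0.44 for Klf1 and 0.35 for Hemgn, both in NC. In all, 7 of the 9 genes (77.8%) had every HC embryo above every other embryo, and 309 of the 17432 genes tested did so (1.77%).

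Sox6 had the opposite order of groups. It ranged in NC from 0.96 through 1.15 to 1.72, in MC from 0.59 through 0.97 to 1.30, in EC from 0.52 through 0.85 to 1.21, and in HC from 0.00 through 0.21 to 1.48. The highest HC embryo, E11.5 embryo 1, lay within the range of the other groups, and the remaining HC embryos were at or below 0.67. Against single groups HC was different by -0.82 from NC (SE 0.19, limma adjusted p = 0.000986), by -0.47 from EC (SE 0.18, adjusted p = 0.0403) and by -0.53 from MC (SE 0.18, adjusted p = 0.0252), each short of the fold threshold, while the other 8 genes were called higher against each single group. The shares of all genes called were 8.97% against NC (3.37% higher and 5.59% lower in HC), 7.93% against EC (2.67% and 5.27%) and 6.95% against MC (2.61% and 4.34%). With log2(TPM + 1) as the scale the difference from the 3 groups together was -1.21 and passed it, where 11.1% of all genes were called lower.

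Shares of cells with a UMI were compared after thinning every cell to 100000 UMIs, which left out 227 grouped cells (19 HC, 59 NC, 37 EC and 112 MC cells). Alas2 was seen in 60.6% ± 27.9 of HC cells (SD over 7 embryos), 20.2% ± 12.8 of NC cells (6 embryos), 6.15% ± 4.98 of EC cells and 8.83% ± 5.15 of MC cells, against 71.5%, 35.7%, 11.1% and 21.8% of all cells without thinning. A UMI of Alas2 was thus also seen outside HC, most often in NC cells, though the level of Alas2 outside HC was low. In the samples that gave HC cells, the cells outside HC held a median of 1.60 TPM of Alas2 (22 samples), and in the samples without HC cells 0.20 TPM (10 samples). The same medians were 2.10 and 0.26 TPM for Klf1, and 41.7 and 59.2 TPM for Tfrc. Which part of the low shares came from free RNA was not tested. Sox6 was seen in 15.8% ± 17.9 of thinned HC cells and in 38.9% ± 13.6 of NC, 33.0% ± 10.9 of EC and 33.1% ± 7.68 of MC cells (31.3%, 48.4%, 40.1% and 40.7% without thinning).

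Of 81 other genes of the same pathways, in 4 lists, 45 were called higher in HC, 0 lower, and 36 did not pass. Of 19 other genes of the heme pathway 13 were called higher and 0 lower, with a median difference of 1.81 against -0.03 over all genes tested. They included Cpox (3.18, SE 0.30), an enzyme of the later part of the pathway, Fech (3.12, SE 0.31), which inserts the iron, and Tmem14c (3.05, SE 0.16), which serves porphyrin import into mitochondria. Of 15 genes of iron uptake and handling 5 were called higher and 0 lower, with a median of 0.84: Glrx5 (2.36), a factor of iron-sulfur cluster assembly, Fth1 (1.96), the ferritin heavy chain, Ncoa4 (1.63), which delivers ferritin for breakdown, Steap3 (1.30), an endosomal ferrireductase, and Slc11a2 (1.19), the iron transporter DMT1. Of 27 measured genes of the red cell membrane and cytoplasm 17 were called higher and 0 lower (median 1.51), among them Ermap (3.55), Rhd (3.03) and the glutathione peroxidase gene Gpx1 (2.80). Of 20 erythroid regulators 10 were called higher and 0 lower (median 0.96), led by the factor Gata1 (3.49), the erythropoietin receptor Epor (3.15), Gfi1b (2.93) and Lmo2 (2.72). All limma adjusted p of the genes named here lay between 1.18e-15 and 1.15e-06.

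The HC cells came from the organs unevenly. The liver gave 15 of 139 grouped cells at E9.5, all 15 from embryo 3, then 82 of 93 at E10.5 and 83 of 88 at E11.5. All other organs together gave 69 HC cells, the largest numbers being 15 in the forebrain at E10.5 and 10 in the hindbrain at E9.5, so single organs are given as values without a test. Over the cells of an organ and day, Alas2 averaged 7.53 in the 5 lung cells and 7.11 in the 5 heart cells of E9.5, and 5.28 in the 10 hindbrain cells. These were also the places with high Klf1 levels, at 6.41, 6.45 and 4.55 in the same order. In the forebrain cells of E10.5 Alas2 averaged 4.46 and Klf1 3.16, and in the 5 hindbrain cells of E11.5 they averaged 6.19 and 4.11. The heart cells were mixed at E10.5 (5 cells, Alas2 1.64, Klf1 1.54) and at E11.5 (6 cells, 3.68 and 3.12). In the skin both genes were near 0 on all days, with 0.02 for both in the 3 cells of E9.5 and 0.00 in the 2 cells of E10.5 and the 4 cells of E11.5. In the liver the order of the pair was turned, with Alas2 at 1.58, 0.95 and 2.51 and Klf1 at 3.88, 4.31 and 5.42 at E9.5, E10.5 and E11.5.

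To see which cells carried these levels, HC cells were clustered into 5 clusters with the 9 genes left out. The clusters are described by their leading genes and given no test, since they were made from the same cells. One cluster led by Hba-x, Hbb-bh1 and Hbb-y was divided, after its values had been seen, at an Hba-x level of 10, where its cells left a gap between 6.47 and 10.4. This gave 48 Hba-x-high cells, found in all 7 embryos but only as 1 liver cell in E11.5 embryo 2, and 15 Hba-x-low cells, of which 14 were of E11.5 embryo 1. A Cd24a-high cluster held 35 cells, all of the liver and 34 of them of E11.5. A cluster expressing Kit and Myb held 88 cells, 87 of them of the liver. A macrophage-like cluster held 58 cells, 32 of them of the liver, in which all 12 macrophage markers examined averaged at least 1. Of 12 markers of myeloid progenitors and megakaryocytes, 8 also did, summing to 895 to 4208 TPM per embryo, against 144 to 485 TPM in Kit- and Myb-expressing cells. Markers of erythro-myeloid progenitors summed to 192 to 484 TPM against 170 to 294 TPM. The name macrophage-like therefore does not stand for 1 cell type. A megakaryocyte-like cluster held 5 cells led by Pf4. With each repeated column counted once, the Hba-x-high set held 47 cells and the Kit- and Myb-expressing set 86. Of the adult beta-globin genes, Hbb-bt, Hbb-b1 and Hbb-b2 were listed at 0 in HC cells, and Hbb-bs had UMIs in 2 HC cells, 1 Cd24a-high and 1 Hba-x-low. Of the adult alpha-globin genes, Hba-a1 was listed at 0 in HC cells and Hba-a2 had UMIs in 3. The study counted only reads that mapped uniquely, so these values do not show that adult globin RNA was absent. Whether reads shared between gene copies were lost was not tested. The 8 markers of definitive erythroid cells that were examined include the 4 adult beta-globin genes. Together the 8 summed to 3549 TPM in the 1 embryo with enough Hba-x-low cells. In the embryos of the Cd24a-high set they summed to 1254 to 1952 TPM. The sums were 379 to 728 TPM in Kit- and Myb-expressing cells and 82.9 to 666 TPM in Hba-x-high cells. Outside HC they ran from 212 to 1129 TPM in NC embryos. Cd24a is among the 8 markers and named the Cd24a-high set, so the sum there is not independent of the name. A mean of at least 1 was reached by 3 of the 8 markers in Hba-x-low and in Cd24a-high cells. It was reached by 4 in Kit- and Myb-expressing and by 2 in Hba-x-high cells. In NC, MC and macrophage-like cells 3 of the 8 also reached it, and in EC cells 2. The count therefore does not set these sets apart.

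**Figure D2:**
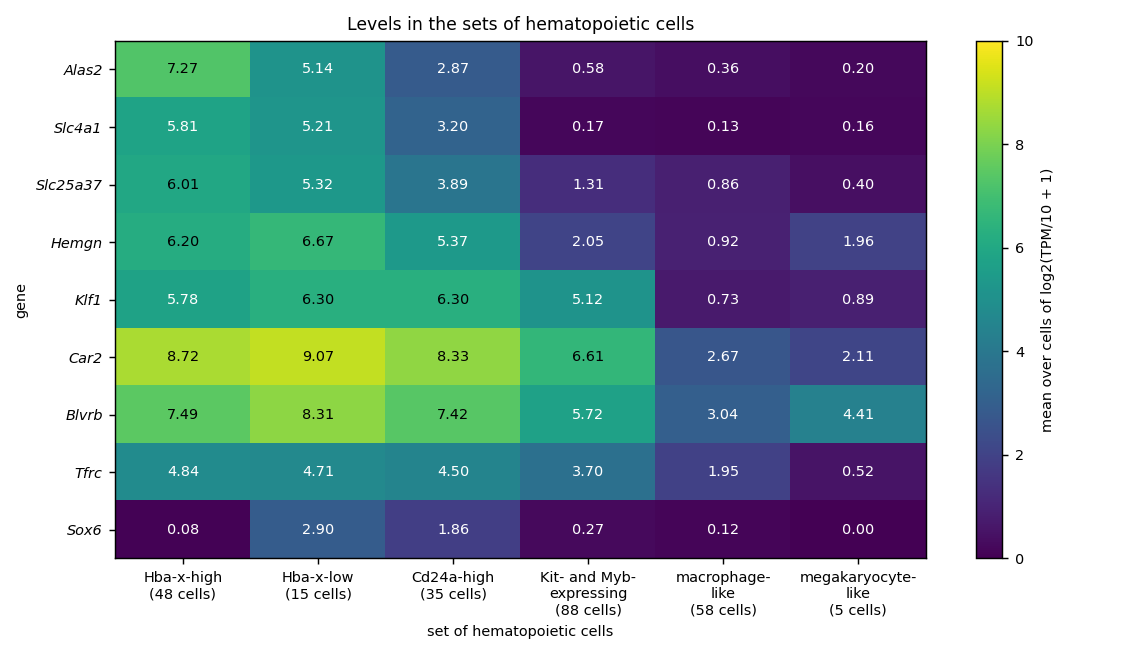
Mean level of the 9 genes over the cells of each set of HC cells, on the log2(TPM/10 + 1) scale, with the number of cells under each set. Alas2 goes from 7.27 in Hba-x-high cells to 0.58 in Kit- and Myb-expressing cells, while Klf1 goes only from 5.78 to 5.12.

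Among the 4 erythroid-type sets (Hba-x-high, Hba-x-low, Cd24a-high, and Kit- and Myb-expressing), the means of Alas2, Slc4a1 and Slc25a37 lay farthest apart. Alas2 averaged 7.27 in Hba-x-high cells, 5.14 in Hba-x-low cells, 2.87 in Cd24a-high cells, 0.58 in Kit- and Myb-expressing cells and 0.36 in macrophage-like cells. Slc4a1 averaged 5.81, 5.21, 3.20, 0.17 and 0.13 in the same order, and Slc25a37 6.01, 5.32, 3.89, 1.31 and 0.86. Hemgn had nearly as wide a span, at 6.20, 6.67, 5.37, 2.05 and 0.92, with its highest mean in the Hba-x-low cells. By these means, Alas2, Slc4a1 and Slc25a37 were lowest of those 4 sets in the cells that carry Kit, the receptor of stem cell factor. Their means were highest in the cells full of embryonic globin, while the macrophage-like cells were lower still. By the median cell, Slc4a1 and Slc25a37 were higher in Hba-x-low cells (6.08 and 6.38) than in Hba-x-high cells (5.88 and 5.95). Alas2 kept its order, with medians of 6.35 and 7.36. In the Hba-x-low set the lowest value of each of these genes was 0.00. In the Hba-x-high set even the lowest cell held 6.29 of Alas2, and in the Kit- and Myb-expressing set the highest cell held 3.05.

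Klf1, Car2, Blvrb and Tfrc were already at a high level in the Kit- and Myb-expressing cells. Klf1 averaged 5.78 in Hba-x-high, 6.30 in Hba-x-low, 6.30 in Cd24a-high and 5.12 in Kit- and Myb-expressing cells, against 0.73 in macrophage-like cells. Car2 averaged 8.72, 9.07, 8.33 and 6.61 in the 4 erythroid-type sets and 2.67 in macrophage-like cells, and Blvrb averaged 7.49, 8.31, 7.42 and 5.72 against 3.04. Tfrc was the flattest, at 4.84, 4.71, 4.50 and 3.70 against 1.95. The 5 megakaryocyte-like cells held Blvrb at 4.41 and Hemgn at 1.96, with Klf1 at 0.89 and Sox6 at 0.00.

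Sox6 had a pattern of its own among HC cells. It averaged 2.90 in Hba-x-low cells and 1.86 in Cd24a-high cells, but 0.27 in Kit- and Myb-expressing cells and 0.08 in Hba-x-high cells. It was expressed in 12 of 15, 21 of 35, 11 of 88 and 0 of 48 cells, respectively, and the highest of the Hba-x-high cells held 0.72. The cells with the most embryonic alpha-globin therefore held little Sox6, and the sets found mostly in the E11.5 liver held more of it. As Hba-x divided 2 of these sets, the inverse order of Sox6 and Hba-x between them is a description.

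Per cell, the genes were expressed in unlike numbers of liver cells, at a fixed level that genes of higher abundance pass more often. Of 180 liver HC cells, 163 expressed Klf1, and all 163 of those also expressed Car2 and Blvrb (161 and 161 of 178 with each repeated column counted once). Car2 was also expressed in 15 liver cells without Klf1 and Blvrb in 14. Only 2 liver cells expressed neither Klf1 nor Car2, and 3 neither Klf1 nor Blvrb, so nearly every cell expressed Car2 and Blvrb with or without Klf1. Alas2 was expressed in 71 of the Klf1-expressing cells and in 1 cell without Klf1, Slc4a1 in 54 and 1, Hemgn in 130 and 9, and Slc25a37 in 112 and 6. Many liver cells thus had Klf1 without Alas2 (92 cells, or 90 with each repeat counted once) or without Slc4a1 (109 cells). In the other organs the 2 genes went together, with 39 of 69 cells (38 of 68 with each repeat counted once) expressing Klf1 and Alas2, 1 only Klf1, 4 only Alas2 and 25 neither. With any UMI counted in place of the expressed level, 56 liver cells held no Alas2, and of these 54 held Klf1, 55 Car2, 55 Blvrb and 17 Slc4a1.

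**Figure D3:**
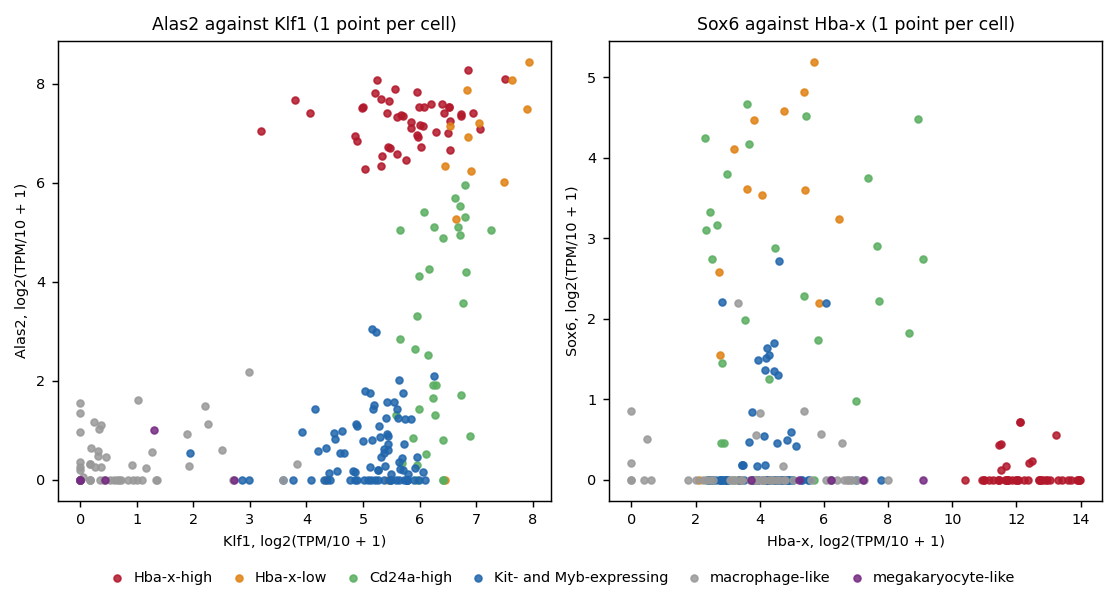
Single HC cells, 1 point per cell coloured by set, with Alas2 against Klf1 on the left and Sox6 against Hba-x on the right, all axes on the log2(TPM/10 + 1) scale. Kit- and Myb-expressing cells lie at Klf1 levels up to 6.26 with Alas2 up to 3.05, and Hba-x-high cells lie at Alas2 levels of 6.29 or more and Sox6 levels of 0.72 or less.

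Between the liver and the other organs, HC cells showed lower means of Alas2, Slc4a1 and Slc25a37 and higher means of Klf1 and Car2 in the liver, but 0 of the 9 genes passed the test. The liver means of Alas2 were 1.58 for embryo 3 of E9.5, 0.82 and 1.07 for embryos 1 and 2 of E10.5, and 3.60 and 1.40 for those of E11.5. In the other organs the 6 embryo means had a lowest of 0.03, a median of 4.71 and a highest of 7.01. The highest was that of E9.5 embryo 1, of 3 heart cells, all Hba-x-high. Within the E10.5 embryos and E11.5 embryo 1 the other organs were higher (3.17, 3.97 and 5.45), and in E11.5 embryo 2 they were lower. That last mean rested on 6 cells, all 6 macrophage-like, and macrophage-like cells also made up 8 of 18, 5 of 10, 2 of 11 and 3 of 19 other-organ cells of E10.5 embryos 1 and 2, E11.5 embryo 1 and E9.5 embryo 2, against 12 of 40, 4 of 42, 4 of 42, 8 of 41 and 4 of 15 liver cells in E10.5 embryos 1 and 2, E11.5 embryos 1 and 2 and E9.5 embryo 3. The part of these cells in the differences was not tested.

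**Figure D4:**
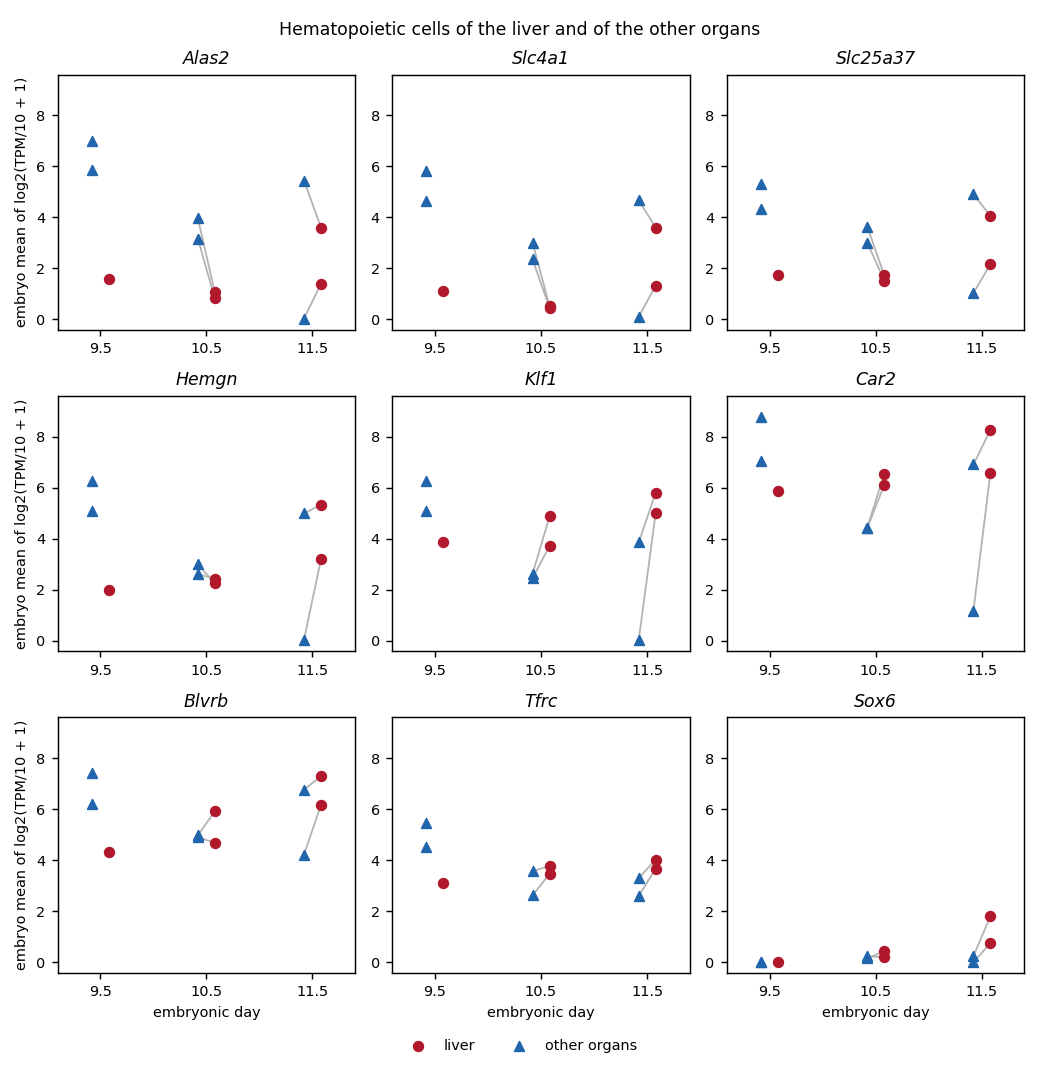
Embryo means of the 9 genes in HC cells of the liver (circles) and of the other organs (triangles) by embryonic day, on the log2(TPM/10 + 1) scale, with points set slightly apart and lines joining the means of 1 embryo. Alas2 in the liver lies between 0.82 and 3.60, and in the other organs between 0.03 and 7.01.

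Slc4a1 had liver means of 1.10, 0.44, 0.51, 3.60 and 1.32 (E9.5 embryo 3, then embryos 1 and 2 of E10.5 and of E11.5), and a median of 3.83 in the other organs (0.10 to 5.81). Klf1 had liver means of 3.88, 3.72, 4.88, 5.81 and 5.02, and a median of 3.25 in the other organs (0.03 to 6.26). Car2 had liver means of 5.89, 6.12, 6.55, 8.27 and 6.60, and a median of 5.68 (1.19 to 8.79). For each of these genes the liver range lay inside the range of the other organs. With the day in the limma fit (11 means, 12614 genes, 1.58% called, 1.27% higher and 0.309% lower in the liver), liver minus other organs was -2.39 for Alas2 (SE 0.93, adjusted p = 0.157), -1.94 for Slc4a1 (SE 0.86, adjusted p = 0.205), -1.42 for Slc25a37 (SE 0.68, adjusted p = 0.241), 1.43 for Klf1 (SE 0.81, adjusted p = 0.314), 1.38 for Car2 (SE 0.98, adjusted p = 0.425) and 0.47 for Sox6 (SE 0.21, adjusted p = 0.204). Hemgn (-0.54), Blvrb (-0.10) and Tfrc (0.02) lay within 1 SE of 0. By limma's unadjusted p under 0.05 there were 3 genes (Alas2, Slc4a1 and Sox6), and edgeR on summed UMIs called 0. The share of all genes at that unadjusted p is not given, so the count of 3 has no background.

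When liver and other organs were compared within the embryos, by a block for the embryo in the 4 embryos that had both, Klf1 was 2.61 higher (SE 0.52, limma adjusted p = 0.0212) and Car2 2.64 higher (SE 0.58, adjusted p = 0.0272) in the liver. That fit called 4.30% of all genes higher in the liver, and in E11.5 embryo 2 it set the liver against the 6 macrophage-like cells. Klf1 was higher in the liver in each of these embryos, by its means of 3.72 against 2.46 and 4.88 against 2.63 at E10.5, and 5.81 against 3.86 and 5.02 against 0.03 at E11.5. Alas2 was then -1.43 (SE 0.60, adjusted p = 0.144). In a fit added after the values had been seen, with the block and without E11.5 embryo 2, 3 embryos remained. There limma called Klf1 (1.82, SE 0.29, adjusted p = 0.0133) and Car2 (1.72, SE 0.29, adjusted p = 0.0138) higher in the liver, and 4.62% of all genes were called higher. It called Alas2 (-2.36, SE 0.28, adjusted p = 0.00914), Slc4a1 (-1.83, SE 0.31, adjusted p = 0.014) and Slc25a37 (-1.42, SE 0.28, adjusted p = 0.0212) lower, with 1.70% of all genes called lower. These 5 calls thus rest on the block and, for the 3 lower genes, on leaving out that embryo. Of the pathway lists, the fit with the day called 5 genes, all higher in the liver: Bcl11a (2.49), a repressor of embryonic globin genes, Lmo2 (1.81), Cd47 (1.60), a surface protein of red cells, Myb (1.52), a factor of progenitors, and Car1 (1.51). Their limma adjusted p lay between 0.000254 and 0.0132, and 0 of 19 heme pathway and 0 of 15 iron genes were called. Of these 2 lists, 1 and 5 genes had a limma unadjusted p under 0.05, with no share of all genes beside them.

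Within the liver, all 9 genes had a positive slope from E9.5 to E11.5, and 0 of the 9 passed the test at these 5 embryo means. Blvrb went from 4.31 at E9.5 to 4.69 and 5.92 at E10.5 and to 7.30 and 6.17 at E11.5. Its slope was 1.24 per day (SE 0.23, limma adjusted p = 0.127). Over all 11641 genes 0.0344% were called, 0.0258% with a rising and 0.00859% with a falling slope. Hemgn went from 2.0 to 2.26 and 2.44 and to 5.34 and 3.19, with a slope of 1.25 (SE 0.34, adjusted p = 0.19). Sox6 went from 0.01 to 0.20 and 0.45 and to 1.80 and 0.76 (0.68 per day, SE 0.18, limma adjusted p = 0.18). Klf1 and Car2 each had a slope of 0.82 (SE 0.23, adjusted p = 0.205), Slc4a1 of 0.87 (SE 0.39, adjusted p = 0.44), Slc25a37 of 0.81 (SE 0.32, adjusted p = 0.37), Alas2 of 0.62 (SE 0.37, adjusted p = 0.583) and Tfrc of 0.35 (SE 0.19, adjusted p = 0.527). At limma's unadjusted p under 0.05 there were 7 of the 9 (all but Alas2 and Tfrc), and edgeR called 0. The share of all genes at that unadjusted p is not given, so the count of 7 has no background to be read against.

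E11.5 embryo 1 was the highest liver sample for each of the 9 genes. Of its 42 liver HC cells, 20 were Cd24a-high, 13 Hba-x-low and 3 Kit- and Myb-expressing, whereas E11.5 embryo 2 had 14, 0 and 18 of 41. The Hba-x-low cells held a median of 112612 UMIs, fewer than the Kit- and Myb-expressing cells at 618520. Without E11.5 embryo 1 the slope of Alas2 was -0.09 per day. Without E10.5 embryo 1, limma called Hemgn (1.20, adjusted p = 0.0355), Car2 (0.78, adjusted p = 0.0196) and Blvrb (1.17, adjusted p = 0.000238), where 0.172% of all genes were called rising, and without E10.5 embryo 2 it called Blvrb, where 0.0859% were. The 4 genes called over the whole table were the metallothionein genes Mt1 (0.96) and Mt2 (1.82) and Rgcc (2.12), which rose, and the embryonic globin Hbb-y, which fell by 1.0 per day. The pathway lists had 0 calls by limma and 0 by edgeR. In the heme, iron, membrane and regulator lists 10, 5, 16 and 3 genes had an unadjusted p under 0.05 by limma. These counts also have no share of all genes beside them.

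Within single sets of cells the genes could be followed without the change in the mix of sets. In Kit- and Myb-expressing cells Klf1 was 5.27 at E9.5, 4.85 and 5.15 at E10.5 and 4.84 and 5.46 at E11.5 (embryo means, mostly of liver cells), and Alas2 was 0.28, 0.47, 0.66, 0.27 and 0.75. Neither gene had an order by day there. Hemgn was 0.75 at E9.5 and 2.08, 2.08, 2.55 and 2.37 later, so that its E9.5 mean, of 7 cells, was the lowest. In Cd24a-high cells the E11.5 embryos 1 and 2 held Alas2 at 3.44 and 2.27, Slc4a1 at 3.71 and 2.58, and Sox6 at 1.79 and 2.0. No test was made on these sets.

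The Hba-x-high cells allowed a look at the days in the cells with most Alas2, in a fit added after the values had been seen. The organs of these cells differed between the days. At E9.5 they were 3 heart cells in embryo 1, 3 liver cells in embryo 3, and mostly hindbrain (7) and lung (5) cells in embryo 2. E10.5 embryo 1 gave mostly forebrain cells (6), and hindbrain cells (4) were the most numerous in E11.5 embryo 1. Embryos 1 and 2 of E9.5 were also sequenced on another instrument than the rest. The part of the organ in the slopes was not tested. Alas2 had a slope of 0.21 per day (SE 0.23, limma adjusted p = 0.688), at 7.01, 7.28 and 7.02 in the E9.5 embryos, 7.12 and 7.22 at E10.5 and 7.6 in E11.5 embryo 1. Slc25a37 was 5.30, 5.48 and 5.83 at E9.5, 6.12 and 6.33 at E10.5 and 6.83 at E11.5, with a slope of 0.65 per day (SE 0.27, limma adjusted p = 0.178). Tfrc was 5.47, 5.06 and 5.55 at E9.5, 4.91 and 5.26 at E10.5 and 3.61 at E11.5, with a slope of -0.75 (SE 0.29, adjusted p = 0.152). The receptor and the mitochondrial carrier of iron thus had slopes of opposite sign, neither of which passed the test. Klf1 was 6.26, 6.30 and 5.90, then 5.63 and 5.17, then 5.36, with a slope of -0.47 (SE 0.27, adjusted p = 0.391).

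**Figure D5:**
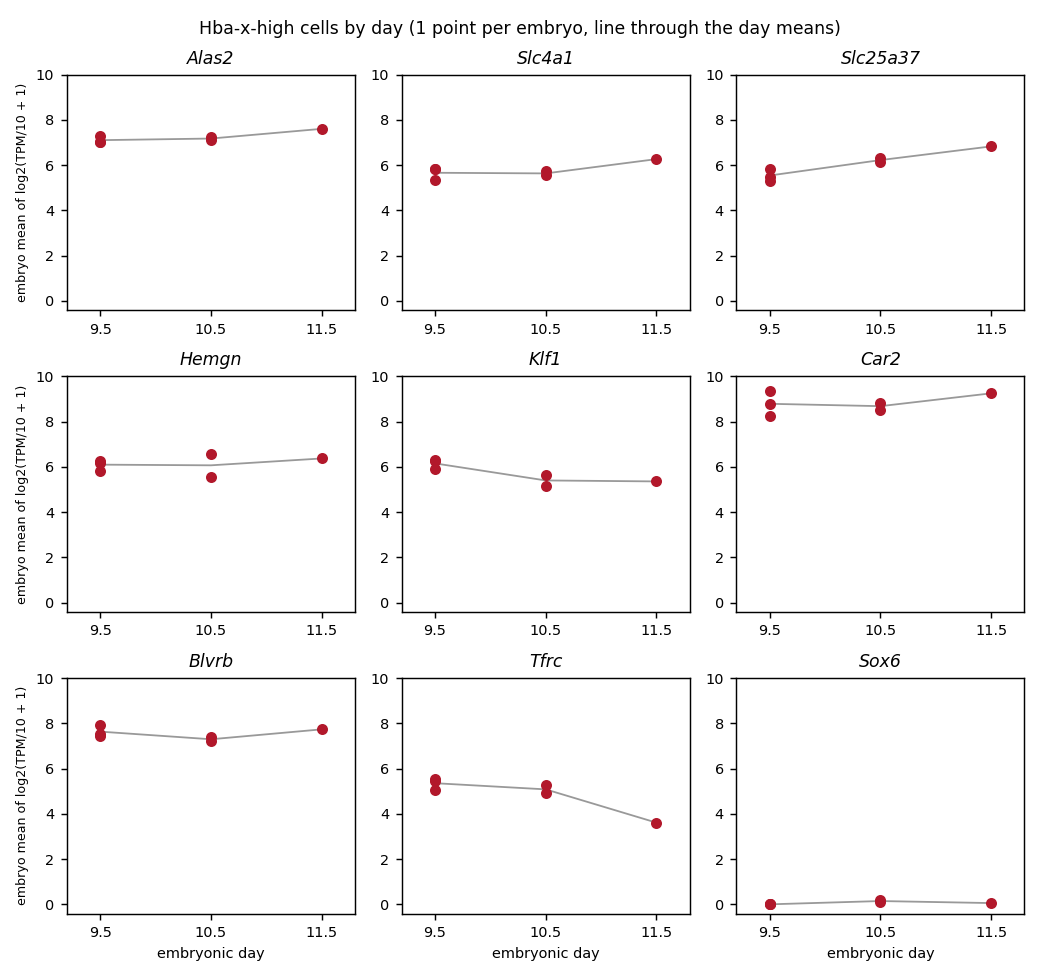
Embryo means of the 9 genes in Hba-x-high cells by embryonic day, on the log2(TPM/10 + 1) scale, with a line through the day means and 1 embryo at E11.5. Slc25a37 goes up from 5.30 to 6.83 and Tfrc is lowest at E11.5, at 3.61.

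The slopes of the remaining genes in Hba-x-high cells lay between -0.03 (Blvrb) and 0.24 (Slc4a1), each within 1 SE of 0. Of 8 genes tested 0 were called, 2 had an unadjusted p under 0.05 by limma (Slc25a37 and Tfrc), and edgeR called 0. The share of all genes at that unadjusted p is not given, so the count of 2 has no background. Over the 8892 genes of that fit 2.65% were called, 2.50% with a falling and 0.157% with a rising slope. Sox6 was expressed in too few of these cells to be tested.

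Genes with the most similar pattern were sought over 31 embryo means (the 4 groups, with HC cells divided into liver and other organs), where the means of one embryo share their libraries. Alas2 was most like Slc4a1 (Pearson r = 0.99), the globin gene Hbq1b (0.99) and Epb4.2, a membrane skeleton gene (0.98). Slc4a1 was most like Epb4.2, Alas2 and Hbq1b (0.99 each), and Slc25a37 like Epb4.2 (0.99), Acp5 (0.98) and Slc4a1 (0.98). Klf1 and Car2 were nearest to each other (0.99), and Klf1 was followed by Icam4 and Gfi1b (0.99 each) and Car2 by Epor and Icam4 (0.99 each). Over 168 thinned liver HC cells, Spearman rho was 0.744 between Klf1 and Car2. There both were closer to Blvrb, Klf1 at 0.777 and Car2 at 0.808. Among the neighbours of Hemgn were the blood group gene Kel and Abcb10 (0.99 each), and Blvrb was nearest to Tal1, Gpx1 and Creg1 (0.97 each). The 2 least HC-bound genes had weaker neighbours, with Apeh, H2afj and Slc11a2 at 0.90, 0.89 and 0.89 for Tfrc and Slc35e2 and Tex9 at 0.77 and 0.71 among those of Sox6.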

How the data were processed

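Single cells were picked into lysis buffer, and polyadenylated RNA was sequenced with UMIs. By the submitters' processing notes and the study's methods, the authors aligned reads with TopHat2 2.0.12 to mm10 after base calling with CASAVA 1.8 and counted UMIs with HTSeq (version and annotation not given in the sources used here). The deposited values are TPM by their file name, which are UMIs scaled to 1000000 per cell, that is CPM with no gene length. Whole UMIs were recovered for 100% of values (tolerance 0.05), and 0 columns were left without a sample. Cells came from the files through their names, and the group of each cell came from the study's cell table. Of 1916 cells, 1819 passed the study's filter and 1815 had 1 of the 4 groups. In all, 1851 cells held at least the 2000 genes that the methods name. No doublet caller was run. In the deposited files 14 cell columns repeated another column of their sample in every gene. They were kept, and each fit was run again without them.

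Embryo means of log2(TPM/10 + 1) over at least 3 cells were fitted with limma 3.58.1 (R 4.3.3, eBayes with trend) on genes expressed in 3 or more of the cells compared, with Benjamini-Hochberg adjustment over all of them. Calls needed an adjusted p under 0.05 and a log2 difference of at least 1, or a slope of at least 0.5 per day. Alternatives used a pseudocount of 1, no filter, at least 5 cells per mean, thinning, UMIs summed per embryo (as log2 values, and with edgeR 4.0.16), an embryo block and leaving out embryos. Clustering used 2000 variable genes and 20 principal components with Ward linkage. The script was tested on simulated data. Whether embryos came from separate litters is not stated, and p-values measure the spread between embryos only. Depth per grouped cell ran from 20326 to 2524348 UMIs, and the spread of thinned shares over embryos holds counting error as well.

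The 9 genes, the 4 pathway lists (82 genes, 81 matched, 3 of them under older symbols) and the markers were chosen with earlier results of these data known. Named besides the 9 were up to 4 genes per list with the largest difference among those called, any count of 5 or fewer, and the 3 genes most like each of the 9. Some of the genes so chosen are not reported here. The group, day and embryo of a sample came from its title. Same-embryo means deviate together, since they share the animal: over 39 pairs of groups the correlation of deviations ran from -0.053 to 0.682 (median 0.267), and over the 4 pairs of liver and other organs from 0.154 to 0.462. The labels name 2 sequencers where the methods name the HiSeq 4000.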

Additional observations from a re-analysis of the deposited data

Results flagged for a closer look

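Single embryos stood apart from the others of their set in 9 of 81 sets of 4 to 10 embryo means, where chance gives about 1 in 20 for a single set. The sets of the 9 genes share their embryos and cells, so they are not independent and their count cannot be set against that chance. In the liver HC cells, E11.5 embryo 1 held 3.60 of Alas2 (the others 0.82 to 1.58), 3.60 of Slc4a1 (0.44 to 1.32) and 4.05 of Slc25a37 (1.52 to 2.17). In Hba-x-high cells the same embryo held 3.61 of Tfrc (the others 4.91 to 5.55), and in Kit- and Myb-expressing cells E9.5 embryo 3 held 0.75 of Hemgn (2.08 to 2.55). Outside HC, E10.5 embryo 2 held 0.30 of Alas2 in EC and 1.28 of Car2 in NC, E9.5 embryo 1 held 0.05 of Klf1 in EC, and E9.5 embryo 2 held 1.72 of Sox6 in NC. The cause was not tested for any of them.

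The 101 cells without a group, which no comparison used, also held UMIs of all 9 genes. Summed over these cells the values were 13.2 TPM for Alas2, 2.68 for Slc4a1, 10.9 for Slc25a37, 5.36 for Hemgn, 6.01 for Klf1, 75.2 for Car2, 22.9 for Blvrb, 80.2 for Tfrc and 54.5 for Sox6. Pooled over NC, EC and MC cells, Alas2 was at 1.66 TPM, Klf1 at 2.55 TPM and Car2 at 14.6 TPM. Most of the cells were shallow, with a median of 10306 UMIs, but the deepest held 3804772. The sums over these cells therefore weigh the deepest cells most. A single liver cell of E11.5 embryo 1 with 19306 UMIs had the highest share of 6 of the genes, with Alas2 at 5076 TPM and Car2 at 27919 TPM.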

How the results depend on the processing

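Of 517 values of the 9 genes under the alternatives, 472 kept their direction and their side of the threshold, 15 passed the threshold anew, 0 lost a call and 30 turned, none of them called. The 8 calls in HC against the other groups held under each alternative, and the count of all genes called there was 3509 on log2(TPM + 1), 6793 with edgeR and 2046 on log2 summed UMIs, against 1200. On log2(TPM + 1) and on log2 summed UMIs Sox6 was also called lower (-1.21 and -1.12).

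For the liver slope, log2(TPM + 1) called 2 of the 9 genes (Car2 0.92 and Blvrb 1.41 per day), 3 pathway genes and 36 of all genes. All genes called numbered 0 without a filter, 0 with edgeR and 1 on summed UMIs. Leaving out 1 embryo gave 0 to 3 of the 9 genes, 0 to 4 pathway genes and 0 to 54 of all genes, and put the slope of Alas2 between -0.089 (without E11.5 embryo 1) and 1.56 (without E9.5 embryo 3). No paired analysis was possible for the slopes because an embryo gives 1 value.

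For liver against other organs, the embryo block (the pairing by animal) called 2 of the 9 genes, 13 pathway genes and 798 of all genes, and turned Hemgn (0.64) and Blvrb (0.81). Among the 9 genes it changed no other call, here or in HC against the other groups. With the block and E11.5 embryo 2 left out (added after seeing the data), 5 of the 9 genes, 14 pathway genes and 797 of all genes were called, and Blvrb was 0.43. All genes called were 346 on log2(TPM + 1), 118 without a filter and 505 with edgeR. With at least 5 cells Blvrb was 0.26, with edgeR Car2 was -0.58 and Tfrc -0.033, and on summed UMIs -0.12 and -0.070. Leaving out 1 embryo gave 19 to 331 of all genes and 2 to 7 pathway genes, and ranges of -0.22 to 0.44 for Tfrc, -0.59 to 0.39 for Blvrb and -1.44 to 0.076 for Hemgn. Without both HiSeq 2500 embryos (added after seeing the data) 325 genes were called, with Hemgn at 0.63 and Blvrb at 0.78.

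For the slope in Hba-x-high cells, all genes called were 444 on log2(TPM + 1), 0 without a filter, 81 thinned, 14 with edgeR, 96 on summed UMIs and 1 without the HiSeq 2500 embryos, where Car2 was -0.045. Blvrb was 0.10 with at least 5 cells, 0.038 thinned, 0.26 with edgeR and 0.031 on summed UMIs, and Hemgn was -0.014 thinned. Leaving out 1 embryo gave 0 to 912 of all genes and 0 to 1 pathway genes, and ranges of -0.34 to 0.081 for Blvrb, -0.030 to 0.18 for Hemgn, -0.028 to 0.30 for Slc4a1 and -0.10 to 0.34 for Car2. The causes were not tested. Depth limits the genes near the level of 1 UMI, such as Sox6 in HC and Alas2 outside it, and 1 embryo at E11.5 or at E9.5 limits both slopes. Counting each repeated cell column once (added after seeing the data) changed no call of the 9 genes and no direction, with 1194, 4, 186 and 223 of all genes called in the 4 comparisons.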
